A study of Mus musculus with 6 samples.

Results

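Transcription factors that set and hold blood cell identity were examined in C1498, a mouse line from the C57BL/6J strain that its labels describe as acute myeloid leukemia (AML) cells. Of 42 listed factors, 40 had a probe set assigned to that gene alone, among 19938 genes with such a probe set. A probe set is the group of array probes that are summarised into 1 value. Where a gene had several, the one with the highest mean over the 6 arrays was to be taken, and each of these 40 genes had 1. Runx2, a factor of bone formation, and Tcf7, a T cell factor, were not analysed here. In one group the cells were given the PARP-1 inhibitor PJ34 at 20 μM for 48 h, and in the other the PBS vehicle for 48 h, with 3 arrays in each and the same line and medium throughout. As a model this is 1 established line in culture, with PARP-1 inhibited by 1 compound at 1 dose and time. The study speaks of independent experiments without saying more, so that p-values measure the spread between these arrays, which may be partly technical.

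Blood lineages are held apart by small sets of such factors, many of which switch on their own lineage and hold others off. GATA factors, Runx factors and basic helix-loop-helix (bHLH) proteins bind together in stem and progenitor cells. The bHLH proteins Tal1 and Lyl1 pair with E proteins, encoded by Tcf3, Tcf4 and Tcf12, on short DNA motifs called E-boxes. Id proteins also pair with E proteins but cannot bind DNA and so keep them from it. C/EBP factors and Irf8 act in granulocytes and monocytes, Gata3, Bcl11b, Tox and Zbtb7b in T cells, and Ebf1 in B cells.

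The median of the 35556 probe sets on an array ranged from 4.41 to 4.46 (log2), and arrays of the same group correlated at 0.992 to 0.995, those of different groups at 0.992 to 0.994. The values hold no detection calls. As a rough level of probe sets whose gene is not expected in blood, 1023 probe sets of olfactory receptor genes were used, of which the upper 5% began at 3.82 and the upper 1% at 4.70. Probe sets are placed against these values by their mean over the 6 arrays. This is not a test of expression, since 7 of 10 marker genes of fibroblasts and epithelium also lay above 3.82, and 4 of them above 4.70. The 5 leukocyte markers lay far above it, with Ptprc, the pan-leukocyte phosphatase CD45, at 10.61 ± 0.03 in the PBS cells (mean ± SD, n = 3).

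The markers of the labelled cell type were mostly low. Of 24 measured myeloid markers, 13 lay below 3.82 and 6 above 4.70. Mpo, the myeloperoxidase of granulocyte precursors, was at 3.88 in the PBS cells, the elastase Elane at 3.66, the growth factor receptor Csf1r at 3.70 and Csf3r at 3.25. Among those above 4.70 were the Fc receptors Fcgr1, at 6.82, and Fcgr3, at 6.98. By contrast, 9 of 17 T cell markers lay above 4.70, and the CD3 chains Cd3e and Cd3g were at 10.38 and 11.10. Gata3 and Bcl11b, themselves listed factors, are counted in those 9. Cd3d, at 4.81, was just above 4.70, and Cd4 and Cd8a were below it, at 3.83 and 4.37. Thy1, Cd5, Cd2, Cd247, Cd6 and Cd8b1 were also below it, at 4.41, 4.28, 4.11, 4.05, 4.01 and 3.32. No B cell marker of 12 lay above 4.70, and 2 of 12 NK cell markers did. These values go against the myeloid label, and no other cell type is named from them.

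**Figure D1:**
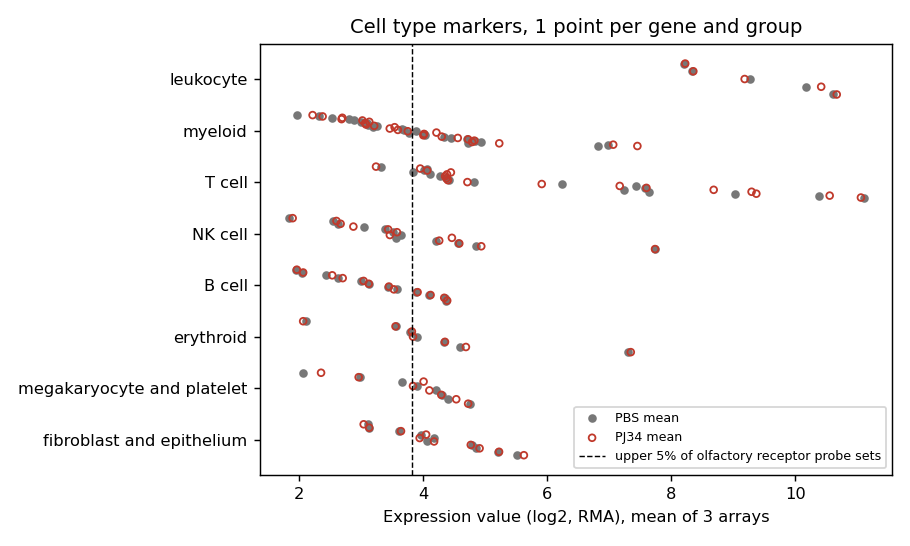
Mean log2 expression value (horizontal axis) of each marker gene in the 3 PBS arrays (grey) and the 3 PJ34 arrays (red rings), 1 row per cell type, with the dashed line at 3.82, the start of the upper 5% of olfactory receptor probe sets. Of the myeloid markers, 13 of 24 lie left of the line by their mean over the 6 arrays, and 9 of 17 T cell markers lie above 4.70.

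Among the 40 factors, 35 lay above 3.82 and 26 above 4.70 by their mean over the 6 arrays, and the levels that follow are those of the PBS cells. Gfi1, a zinc finger repressor that acts in granulocytes and in lymphocytes, was at 6.24 ± 0.11 (SD, n = 3). Cebpa, which directs granulocyte formation, was at 4.93 ± 0.05, Cebpe, which acts late in granulocytes, at 4.83 ± 0.09, and Irf8, a factor of monocytes and dendritic cells, at 4.09 ± 0.11. Of the erythroid and megakaryocyte factors, Gata1, the central erythroid factor, and Nfe2, needed for platelet formation, were near the reference level at 3.90 ± 0.08 and 3.66 ± 0.18, and the repressor Gfi1b was above the array median of 4.42, at 5.29 ± 0.13.

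All 6 measured T cell commitment factors lay above 4.70. Gata3 was at 9.04 ± 0.05 (SD, n = 3), the HMG box factor Lef1 at 8.92 ± 0.04, Runx3, which favours the CD8 lineage, at 8.14 ± 0.05, and the HMG box factor Tox at 7.81 ± 0.02. Zbtb7b, which directs the CD4 lineage, was at 7.09 ± 0.07 and Bcl11b at 6.24 ± 0.03. The Ikaros family was divided, with Ikzf1 at 9.71 ± 0.04 (SD, n = 3) and Ikzf2 at 9.48 ± 0.07 against 3.46 ± 0.06 for Ikzf3. The B cell factor Ebf1 was at 2.63 ± 0.14, below the reference level, while Bach2, a repressor that acts in B and T cells, was at 8.47 ± 0.06. Because each probe set responds differently, these levels are given against the array as a whole and not as an order among genes.

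Among the factors of stem and progenitor cells, Myb was at 8.67 ± 0.05 (SD, n = 3) and Runx1 at 7.52 ± 0.04. Lyl1 was at 6.41 ± 0.04, Tal1 at 5.13 ± 0.01, and Lmo2, which bridges Tal1 and GATA factors, at 5.05 ± 0.21. Gata2, which maintains stem cells, was at 4.10 ± 0.20. Of the effector and helper factors, Maf, Nfil3, Bcl6 and Rora were at 8.11 ± 0.04, 7.48 ± 0.05, 7.01 ± 0.05 and 6.22 ± 0.05. Tbx21, Foxp3 and Prdm1, known from Th1 cells, regulatory T cells and plasma cells, lay between 4.21 and 4.41, and Eomes and Irf4 lay below the reference at 3.05 ± 0.10 and 3.02 ± 0.08. Of the listed E proteins, Tcf3 was at 7.38 ± 0.07 and Tcf4 at 3.65 ± 0.10, the latter below the reference.

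**Figure D2:**
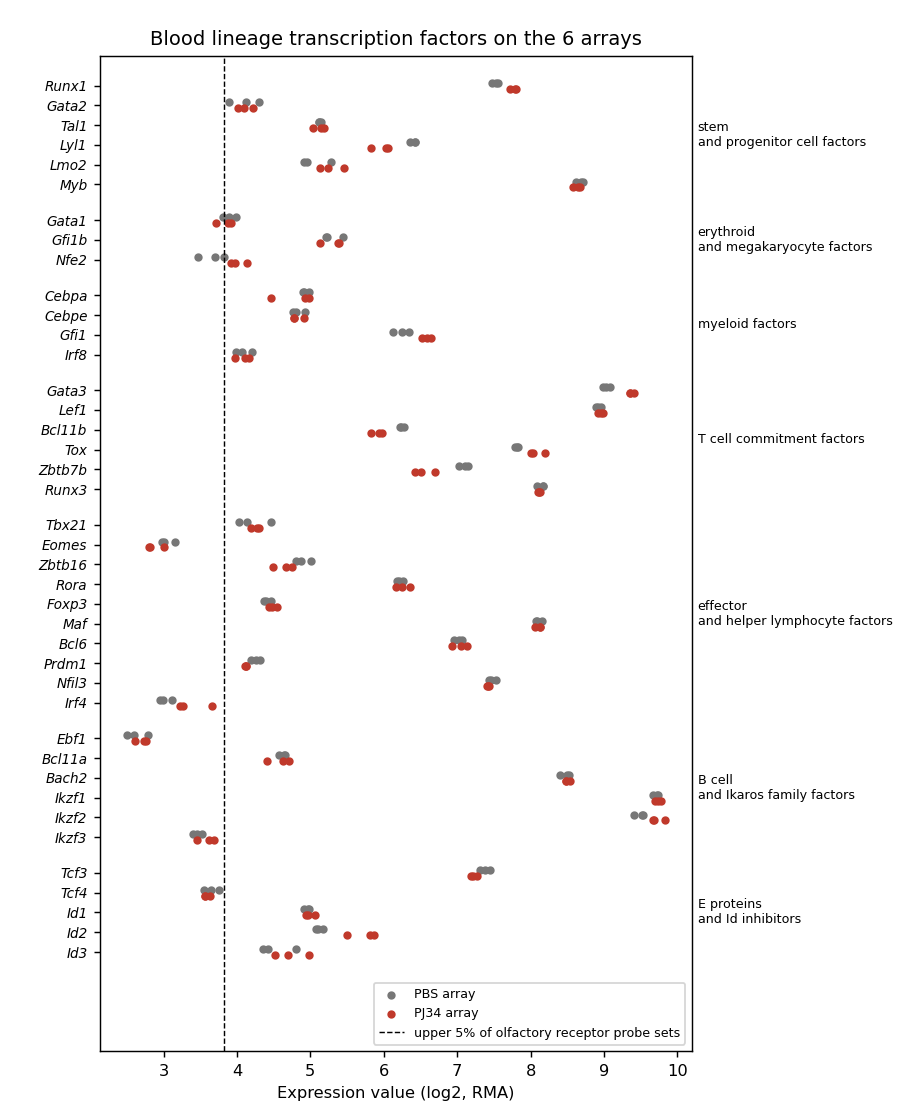
Log2 expression value (horizontal axis) of the 40 measured factors on each of the 3 PBS arrays (grey) and 3 PJ34 arrays (red), grouped by role, with the dashed line at 3.82, the start of the upper 5% of olfactory receptor probe sets. T cell commitment factors all lie to the right of the line, and Ebf1, Irf4, Eomes, Ikzf3 and Tcf4 to the left.

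With PJ34, 3 of the 40 factors rose and 3 fell at an adjusted p under 0.05 from limma. Id2, Gfi1 and Gata3 rose, and Zbtb7b, Lyl1 and Bcl11b fell. Of all 23410 probe sets tested, 3.06% passed, 1.72% higher and 1.34% lower, against 15.0% of the 40 factors. When 1 array was left out these shares no longer stood apart in every case. No factor passed without PBS replicate 2 or 3, against 0.948% and 1.05% of all probe sets, 1 passed without PBS replicate 1 or PJ34 replicate 1, against 1.3% and 1.2%, and 3 passed without PJ34 replicate 2 or 3, against 2.57% and 1.38%. Of the 15273 probe sets above 3.82, where all 6 of these factors lay, 4.41% passed. The list was chosen with earlier results of these data known, and no test of the list as a whole was made. The median log2 fold change was 0.02 over the 40 factors and 0.00 over all probe sets, with 22 factors above 0 and 18 below. The median size of the change, without its sign, was 0.075 for the factors and 0.083 for all probe sets. Fewer cells of a type and less RNA per cell cannot be told apart in such bulk samples.

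Id2, the inhibitor of E proteins that also promotes innate lymphoid and NK cells, had the largest change among the 40. Its log2 values were 5.17, 5.07 and 5.10 on the PBS arrays and 5.87, 5.81 and 5.50 on the PJ34 arrays. All 3 PJ34 values lay above all 3 PBS values, and PJ34 replicate 3 was the nearest to them. Id2 was 1.53-fold higher (log2 fold change 0.61, 95% confidence interval 0.38 to 0.84, SE 0.10, adjusted p = 0.0170 from limma). When 1 array was left out, Id2 passed only without PJ34 replicate 3 (adjusted p = 0.00754 from limma) and otherwise had adjusted p values of 0.0554 to 0.0752.

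The other Id genes did not pass. Id3, whose product also holds back E proteins, was at 4.42, 4.35 and 4.81 in the PBS cells and 4.98, 4.69 and 4.52 in the PJ34 cells, with overlapping groups and a log2 fold change of 0.21 (95% confidence interval -0.13 to 0.54). Id1 had a log2 fold change of 0.03 (-0.11 to 0.18). Tcf12, an E protein gene outside the list of 42, was at 8.31 in the PBS cells. Tcf3, the listed E protein gene above the reference level, was at 7.32, 7.45 and 7.38 with PBS and 7.27, 7.22 and 7.18 with PJ34. Its PJ34 values all lay below its PBS values, and its log2 fold change of -0.16 (SE 0.065) did not pass after adjustment (adjusted p = 0.274 from limma). Tcf4, the E protein gene known from plasmacytoid dendritic cells, had a log2 fold change of -0.07 at a level below the reference.

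Gata3, which commits precursors to the T lineage and later to the Th2 fate, was at 9.03, 9.09 and 8.99 on the PBS arrays and at 9.41, 9.35 and 9.36 on the PJ34 arrays. The groups did not overlap, and the arrays within each lay close together. Gata3 was 1.26-fold higher (log2 fold change 0.34, 95% confidence interval 0.20 to 0.48, SE 0.061, adjusted p = 0.0256 from limma). This call held without PJ34 replicate 2 (adjusted p = 0.0452 from limma) and was lost when any other array was left out (0.0771 to 0.118).

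Zbtb7b, whose product ThPOK directs thymocytes to the CD4 lineage, fell most. It was at 7.02, 7.11 and 7.15 with PBS and at 6.70, 6.51 and 6.43 with PJ34, so that every PJ34 value was lower than every PBS value. The ratio was 0.685 (log2 fold change -0.55, 95% confidence interval -0.74 to -0.35, SE 0.084, adjusted p = 0.0134 from limma). Of the 6 factors called, Zbtb7b passed most often when 1 array was left out, in 4 of 6 fits, and missed without PBS replicate 2 or 3 (adjusted p = 0.0639 and 0.0631 from limma).

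Bcl11b, a zinc finger factor required for T cell commitment, was at 6.23, 6.22 and 6.27 with PBS and 5.98, 5.94 and 5.82 with PJ34. Here too the groups did not overlap. Its ratio was 0.797 (log2 fold change -0.33, 95% confidence interval -0.48 to -0.18, SE 0.067, adjusted p = 0.0395 from limma), and the call was lost whichever array was left out (0.0614 to 0.151). The T cell commitment factors held both rises and falls, with 1 higher and 2 lower of 6. Of all probe sets 3.06% were called, and of those above 3.82 4.41%. Tox, at 7.83, 7.79 and 7.81 with PBS and 8.03, 8.19 and 8.01 with PJ34, did not overlap either, with a log2 fold change of 0.27 (SE 0.070) that missed the threshold (adjusted p = 0.0894 from limma). For Lef1 and Runx3 the groups overlapped, with log2 fold changes of 0.04 (95% confidence interval -0.10 to 0.17) and -0.03 (-0.17 to 0.11).

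Genes of the T cell marker list moved in the same arrays. Besides Gata3 and Bcl11b, the costimulatory receptor Cd28 had a log2 fold change of 1.44, Cd7 of 1.66 and Cd4 of 0.62, all 3 higher (adjusted p = 7.23e-05, 4.43e-05 and 0.00246 from limma). The study chose Cd7 and Cd28 on these arrays. The mean over the 17 T cell markers ran from 6.09 to 6.14 on the PBS arrays and from 6.29 to 6.36 on the PJ34 arrays, with 4 higher and 1 lower, against 3.06% of all probe sets called. The median log2 fold change of the 17 was 0.03. Without Cd7, Cd28 and Cd4, left out after their values were seen, the mean of the other 14 ran from 6.06 to 6.12 with PBS and from 6.04 to 6.12 with PJ34. The kinase Zap70, which signals from the T cell receptor, was at 7.40, 7.49 and 7.40 with PBS and 7.18, 7.16 and 7.16 with PJ34, with separate groups and a log2 fold change of -0.26 that missed the threshold (adjusted p = 0.0640 from limma). Cd4, the marker of the lineage that Zbtb7b directs, was at 3.79, 3.89 and 3.81 with PBS and 4.46, 4.42 and 4.46 with PJ34, close to the reference level. Cd8a had a log2 fold change of 0.00 and Cd3g of -0.05, neither of which passed. The part of these changes in those of the factors was not tested.

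Lyl1, a bHLH factor of stem and progenitor cells, was at 6.36, 6.42 and 6.43 with PBS and 6.03, 5.83 and 6.05 with PJ34. All PJ34 values were below all PBS values, PJ34 replicate 2 being the lowest. The ratio was 0.739 (log2 fold change -0.44, 95% confidence interval -0.61 to -0.26, SE 0.077, adjusted p = 0.0223 from limma). It passed without PJ34 replicate 2 or 3 and was lost without PJ34 replicate 1 or any PBS array (0.0592 to 0.0951). Tal1, the paralog of Lyl1, was at 5.12, 5.12 and 5.14 with PBS and 5.14, 5.04 and 5.18 with PJ34, with overlapping groups and a log2 fold change of -0.01 (-0.15 to 0.14).

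Runx1, required for the first blood stem cells, was at 7.53, 7.48 and 7.56 with PBS and at 7.72, 7.81 and 7.78 with PJ34. The groups were separate, and the log2 fold change of 0.25 (SE 0.062) missed the threshold (adjusted p = 0.0772 from limma). Lmo2 (log2 fold change 0.23, 95% confidence interval -0.04 to 0.50), Myb (-0.04, -0.18 to 0.11) and Gata2 (0.01, -0.23 to 0.25) overlapped between groups. Lmo2 and Gata2 varied more between PBS arrays than the others of this role, with SDs of 0.21 and 0.20.

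Of the myeloid factors, Gfi1 alone passed. It was at 6.13, 6.25 and 6.34 on the PBS arrays and at 6.64, 6.52 and 6.59 on the PJ34 arrays, without overlap. Gfi1 was 1.27-fold higher (log2 fold change 0.34, 95% confidence interval 0.17 to 0.51, SE 0.075, adjusted p = 0.0490 from limma), just inside the threshold. The call was lost with each array centred on its median (adjusted p = 0.0650 from limma) and whichever array was left out (0.0629 to 0.149). Cebpa had overlapping groups and 1 low value, 4.46 on PJ34 replicate 2 against 4.90 to 4.99 on the other 5 arrays, and a log2 fold change of -0.14 (-0.43 to 0.15). For Cebpe and Irf8 the log2 fold changes were -0.01 and 0.00. Of the 24 myeloid markers, Fcgr1 (log2 fold change 0.63) and the lysosomal protein Cd68 (0.51) passed, both higher, against 3.06% of all probe sets called. Itgam (0.45) and Ltf (0.13) lay higher and Elane (-0.20) lower with separate groups, and none of these passed. In the PBS cells they were at 3.77, 3.00 and 3.66, all below 3.82, and 23.5% of all probe sets had separate groups. The mean of the list ran from 3.85 to 3.89 on the PBS arrays and from 3.90 to 4.0 on the PJ34 arrays, and its median log2 fold change was 0.01.

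**Figure D3:**
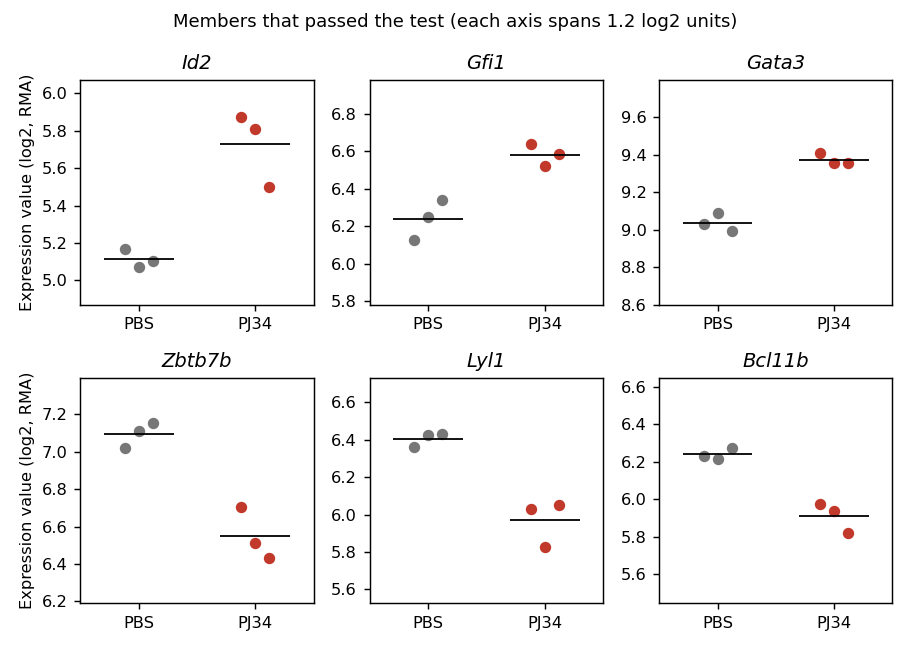
Log2 expression value (vertical axis, 1.2 log2 units in each panel) of the 6 factors that passed the test with PBS (grey, 3 arrays) and with PJ34 (red, 3 arrays). A line marks each group mean. In no panel do the groups overlap, and the widest gap between means is that of Id2, at 0.61.

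For Zbtb7b, Id2, Lyl1 and Gata3, the 4 called factors with the lowest adjusted p, the promoter is shown because bHLH, E and Id proteins act through E-boxes. The sequences are the 300 bases from 250 before to 50 after the start of the gene in RefSeq's annotation of GRCm38.p6, read 5′ to 3′ on the gene's strand, with E-boxes (CANNTG, the same on both strands) in capitals. For Zbtb7b the table lists a second start, and the one farther upstream is shown. The positions are chr3:89393329-89393628 on the minus strand for Zbtb7b, chr12:25096043-25096342 on the minus strand for Id2, chr8:84701207-84701506 on the plus strand for Lyl1 and chr2:9878551-9878850 on the minus strand for Gata3.
Zbtb7b: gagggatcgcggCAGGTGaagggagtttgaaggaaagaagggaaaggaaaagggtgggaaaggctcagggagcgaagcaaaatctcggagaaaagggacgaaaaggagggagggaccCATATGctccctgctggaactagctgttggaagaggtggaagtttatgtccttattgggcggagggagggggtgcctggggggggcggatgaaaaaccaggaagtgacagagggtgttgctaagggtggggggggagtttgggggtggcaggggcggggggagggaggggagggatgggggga
Id2: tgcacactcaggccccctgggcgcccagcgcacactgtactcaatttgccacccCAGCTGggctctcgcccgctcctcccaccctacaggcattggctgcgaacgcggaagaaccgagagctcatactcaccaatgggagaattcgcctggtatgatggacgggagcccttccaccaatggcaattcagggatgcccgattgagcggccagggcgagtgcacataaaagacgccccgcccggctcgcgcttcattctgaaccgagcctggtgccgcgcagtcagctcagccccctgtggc
Lyl1: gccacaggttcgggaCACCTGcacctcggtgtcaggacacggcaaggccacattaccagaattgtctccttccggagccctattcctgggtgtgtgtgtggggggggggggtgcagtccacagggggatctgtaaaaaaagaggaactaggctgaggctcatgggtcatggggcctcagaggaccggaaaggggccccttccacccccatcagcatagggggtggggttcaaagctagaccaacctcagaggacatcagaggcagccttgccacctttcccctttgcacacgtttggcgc
Gata3: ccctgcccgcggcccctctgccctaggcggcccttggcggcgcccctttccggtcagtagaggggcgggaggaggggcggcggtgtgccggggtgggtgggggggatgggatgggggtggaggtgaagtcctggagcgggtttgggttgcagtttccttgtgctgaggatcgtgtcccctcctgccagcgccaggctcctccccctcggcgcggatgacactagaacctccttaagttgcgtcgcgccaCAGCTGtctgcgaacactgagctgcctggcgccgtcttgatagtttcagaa
The Zbtb7b promoter holds 2 E-boxes and each of the other promoters shown holds 1. Of all 32851 promoters in the table, 72.3% hold at least 1, so that an E-box there is common. The Bcl11b promoter holds none and both listed Gfi1 promoters hold 1 each. GATAA, 1 form of GATA sites, is in none of the 8 promoters listed for the 6 called factors and in 25.4% of all promoters. Other forms were not counted, such as the GATAG near the end of the Gata3 promoter. TGTGGT, a core of RUNX sites, is in 1 of these 8, the downstream one of Zbtb7b, and in 16.8% of all. CTTTGA, a core of TCF and LEF sites, is in those of Lyl1 and Bcl11b and in 16.0% of all. AATCA, the core of GFI1 sites, is in none of them and in 37.0% of all. All motifs were searched on both strands. Neighbouring matches may share bases, except those of the E-box, which were counted without overlap. These are matches of letters in a short window and not binding sites.

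Beyond the 6 called factors, 7 had an unadjusted p under 0.05 and separate groups without passing the adjusted test, among them Tox, Runx1 and Tcf3 above. In all, 32.5% of the 40 factors had such a p, against 16.7% of all probe sets tested, and in 14 factors the groups did not overlap, which is 35.0%, against 23.5%. For a single factor, an exact permutation test (two-sided) with 3 arrays in each group cannot go below p = 0.1. Ikzf2, or Helios, of the Ikaros family was at 9.40, 9.53 and 9.52 with PBS and at 9.68, 9.83 and 9.67 with PJ34, which is 0.24 higher in log2 units (SE 0.072, adjusted p = 0.122 from limma). Ikzf2, Runx1 and Tox passed when eBayes was robust and followed an intensity trend (adjusted p = 0.0123, 0.0156 and 0.0147 from limma) and without dim probe sets (0.0402, 0.0198 and 0.0266). More probe sets passed there in general, 8.24% and 13.1% of those tested, against 3.06% in the main fit. Ikzf1, or Ikaros, had overlapping groups and a log2 fold change of 0.02 (95% confidence interval -0.12 to 0.16).

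Nfe2 was at 3.47, 3.82 and 3.70 with PBS and at 3.92, 4.13 and 3.97 with PJ34. These values lie around the reference level, and the log2 fold change of 0.34 (SE 0.10) did not pass (adjusted p = 0.124 from limma). Irf4, a factor of activated lymphocytes and plasma cells, was at 3.11, 3.00 and 2.95 with PBS and 3.22, 3.66 and 3.26 with PJ34, below the reference on all 6 arrays, and its log2 fold change of 0.36 (SE 0.12) did not pass (adjusted p = 0.159 from limma). Zbtb16, or PLZF, known from NKT cells, was at 4.87, 4.80 and 5.01 with PBS and 4.66, 4.49 and 4.76 with PJ34. Its groups were just separate, and the log2 fold change of -0.26 (SE 0.089) did not pass (adjusted p = 0.183 from limma). Prdm1 was the last factor with separate groups, with a log2 fold change of -0.13 and an unadjusted p of 0.0598 from limma.

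With 3.06% of all probe sets called, a small group of factors may well hold no call. The 10 effector and helper lymphocyte factors held none, and neither did the 6 factors of B cells and the Ikaros family. Of the former, Maf, Rora, Bcl6, Nfil3, Tbx21, Foxp3 and Eomes overlapped between groups, with log2 fold changes from -0.17 for Eomes to 0.08 for Foxp3. Of the latter, the log2 fold changes were 0.07 for Ebf1, 0.13 for Ikzf3, 0.03 for Bach2 and -0.04 for Bcl11a, which silences fetal globin and acts in B cells. Missing the threshold does not show that a factor was unaltered. Of the 34 factors not called, 33 had a 95% confidence interval that lay within a 1.5-fold change in both directions. The exception was Irf4, whose interval reached 0.63 on the log2 scale. The median half-width of these intervals was 0.17.

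**Figure D4:**
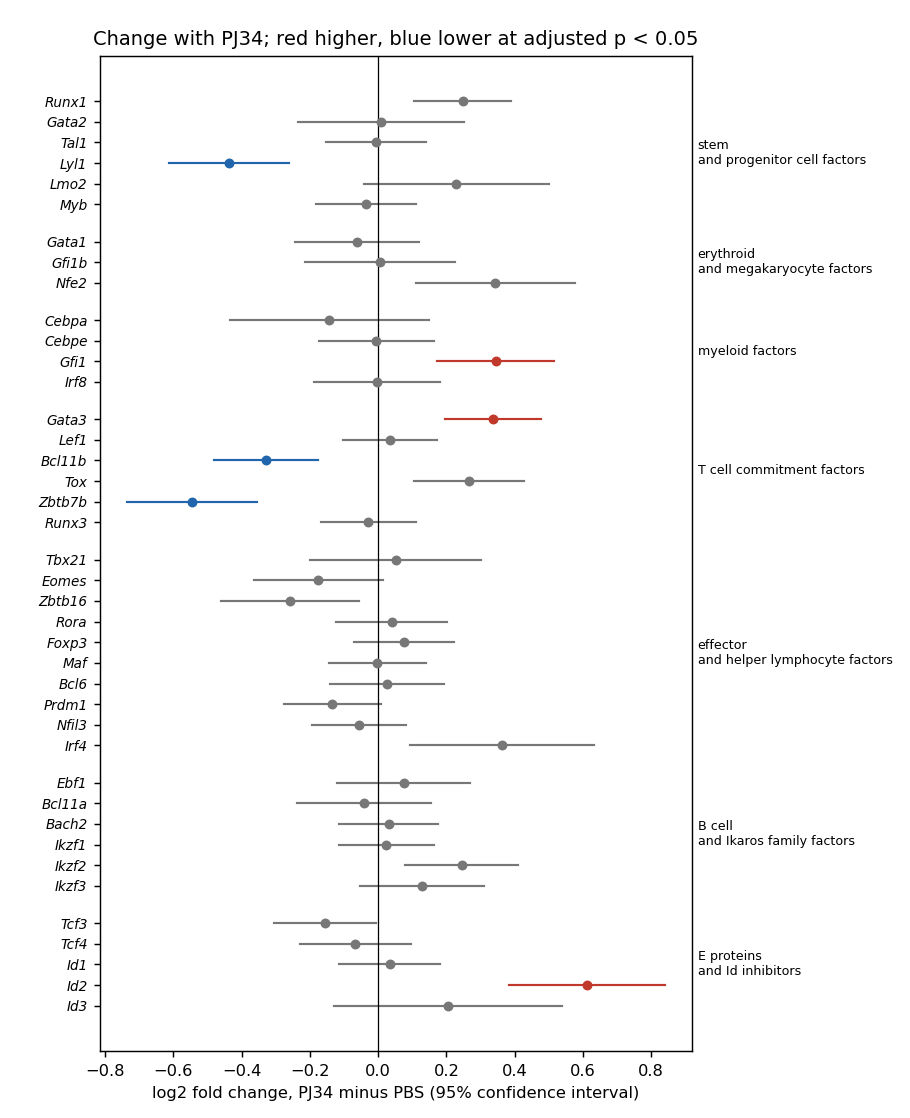
Change from PBS to PJ34 in log2 units (horizontal axis) for the 40 measured factors with 95% confidence intervals from limma, grouped by role. Red and blue mark the 3 factors that rose and the 3 that fell at an adjusted p under 0.05, and grey those that did not pass. Rises and falls stand side by side among the T cell commitment factors.

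Most called factors belong to families whose other members did not pass. For 10 pairs within a family the difference between the 2 changes was taken on the same arrays. Those of Runx1, Ikzf2 and Tcf3 start with a factor that was not called, and Zbtb7b was not paired. The first gene of each pair was chosen because its groups did not overlap, so these differences are a description and no test of them is given. The change of Id2 was larger than that of Id1 by 0.58 (SE 0.16) and than that of Id3 by 0.41 (SE 0.16) log2 units. The change of Lyl1 lay below that of Tal1, by a difference of -0.43 (SE 0.036), and that of Bcl11b below that of Bcl11a, by a difference of -0.29 (SE 0.11). Gata3 exceeded Gata1 by 0.40 (SE 0.088), Runx1 exceeded Runx3 by 0.28 (SE 0.028), Ikzf2 exceeded Ikzf1 by 0.22 (SE 0.036) and Gfi1 exceeded Gfi1b by 0.34 (SE 0.14). For Gata3 against Gata2 the difference of 0.33 (SE 0.15) overlapped between groups, as did that of -0.09 (SE 0.11) for Tcf3 against Tcf4. Gata1 and Gata2 lie near the reference level.

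A list of 68 partners and paralogs of the factors gave 65 measured genes. Of these, 3 fell and none rose. An unadjusted p under 0.05 from limma was found for 11 (16.9%), near the 16.7% of all probe sets. All 3 are transcription factors. Ddit3, or CHOP, a C/EBP paralog induced by cell stress, was at 8.58, 8.57 and 8.52 with PBS and 7.81, 7.80 and 7.74 with PJ34, without overlap and with a log2 fold change of -0.78 (SE 0.061 and adjusted p = 0.000785 from limma). Foxp1, a forkhead paralog of Foxp3 that keeps lymphocytes quiescent, had a log2 fold change of -0.35 (SE 0.062 and adjusted p = 0.0223 from limma). Cebpg, the partner of several C/EBP factors, had one of -0.34 (SE 0.063, adjusted p = 0.0289 from limma). The share of called genes was 4.62%, near the 3.06% of all probe sets. Several direct partners did not pass, with log2 fold changes of 0.08 for Cbfb, the common partner of Runx factors, -0.14 for Ldb1, which joins Lmo2 complexes, 0.05 for the E protein Tcf12 and -0.06 for the GATA partner Zfpm1.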

How the data were processed

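Total RNA of C1498 cells was hybridised to Affymetrix Mouse Gene 1.0 ST arrays, 3 for PBS and 3 for PJ34. The authors summarised the scans with Expression Console 1.3.1 and RMA (background correction, quantile normalization, median polish) and deposited log2 values, which compress large differences and hide background. A genome build for the probes is not given in the sources used here. The platform's gene table named 23410 of 35556 probe sets (21789 with 1 gene, 1621 with several), and the other 12146 were left out of tests. PJ34 was compared with PBS in limma 3.58.1 (R 4.3.3, lmFit and eBayes) on the 23410 probe sets, with Benjamini-Hochberg adjustment and a threshold of 0.05. The fit was tested on simulated data. No 2 arrays were identical. The number of arrays, 3 in each group, limits the precision.

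The members and gene lists were chosen with earlier results of these data known. All 40 measured members are given, and other genes are named from the lists of markers, partners and paralogs when called or when they define a cell type or complex. Promoters came from RefSeq's GRCm38.p6 table. The alternatives were other scalings, eBayes settings, array weights, filters, the methods' t-test, a replicate block and leaving out each array.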

Additional observations from a re-analysis of the deposited data

How the results depend on the processing

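The direction of change held in all 193 combinations of 13 factors (those with an unadjusted p under 0.05 and separate groups) and settings. This lends the directions no support. With separate groups, leaving out or weighting arrays could not reverse them, and several other settings kept the same log2 fold change. The call held or stayed absent in 148, was lost in 39 and was gained in 6. The 6 gains were Runx1, Tox and Ikzf2 with the intensity trend and without dim probe sets. No alternative was added after the files were seen.

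With an intensity trend and robust eBayes, 1008 probe sets rose and 920 fell (8.24% of all, against 3.06% in the main fit). In that setting 6 factors were higher and 3 lower, and 3 partners were higher and 6 lower. Without dim probe sets the counts were 891 and 776 (13.1% of the 12696 tested). Of the 29 factors tested there, 6 were higher and 3 lower, with 3 partners higher and 6 lower. Array weights gave 564 lower probe sets and 5 lower partners, and a new quantile normalization 1 higher and 5 lower partners. In these settings 4.72% and 4.16% of all probe sets passed. The methods' t-test gave 78 higher and 62 lower probe sets (0.598% of all) after Benjamini-Hochberg adjustment, 1 lower partner and 0 factors in either direction, against 6 called by limma. At an unadjusted p under 0.05 it gave 12 factors (30.0%, against 15.9% of all probe sets), and at the study's limit of 0.01 for its array lists 7 (17.5%, against 6.4%), of which none reached the 2-fold limit used with it, against 0.111% of all.

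Leaving out 1 array left 143 to 281 probe sets higher and 79 to 320 lower, 0 to 1 factors higher and 0 to 2 lower, and 1 to 3 partners lower and 0 higher. No factor was called without PBS replicate 2 or 3, 1 without PBS replicate 1 or PJ34 replicate 1 and 3 without PJ34 replicate 2 or 3. Part of this follows from the smaller number of arrays.

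The groups share replicate numbers, but same-numbered arrays did not deviate together (correlations of -0.01, 0.13 and -0.01). With the replicate block, 219 probe sets were higher and 140 lower (1.53% of all), with 1 factor higher (Id2), 1 lower (Zbtb7b) and 1 partner lower. Signal near the level of olfactory receptor probe sets limits what can be said of Gata1, Nfe2, Irf4, Ebf1, Ikzf3, Eomes and Tcf4. The same holds for Gata2, Irf8, Prdm1 and Tbx21, whose means over the 6 arrays lay below the array median of 4.42.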
